A study of Mus musculus with 12 samples.

Results

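The bile acid and organic anion transporters of mouse liver were examined as a set of 10 genes, *Slco1a1*, *Slco1a4*, *Slco1b2*, *Slco2b1*, *Slc10a1*, *Abcb11*, *Abcb4*, *Abcc2*, *Abcc3* and *Abcc4*. They were chosen by name, with earlier results of these data known. All 10 were measured, out of 19938 genes in all, each by exactly 1 probe set that names it alone. RNA of whole liver was taken from suckling pups at postnatal day 2 (P2) and hybridized to Affymetrix MoGene 1.0 ST arrays, 1 array per pup. The 12 arrays comprised 6 *Ppara*-/- livers, homozygous for a germline null allele of the nuclear receptor PPARα and thus lacking it in every cell, and 6 *Ppara*+/+ livers, with 3 males and 3 females in each genotype. Pups of both genotypes came from crosses of heterozygous parents and from litters of 6 to 8, and none was treated. The labels give the strain as SV129 and the methods a C57BL/6 background. The methods describe RNA from 3 litters per genotype, but the labels do not assign pups to litters. The p-values therefore reflect the spread between pups. They treat pups as independent and take no account of likeness between littermates.

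Hepatocytes take up bile acids, conjugated bilirubin and many drugs from sinusoidal blood through SLCO carriers (organic anion transporting polypeptides) and through the sodium-dependent carrier NTCP, encoded by *Slc10a1*. They secrete them into the bile canaliculus with ATP-driven ABC pumps, while another group of ABC pumps on the basolateral membrane returns organic anions to blood. In rodents several of these genes are known targets of the receptors FXR, PXR and CAR and of the factor NRF2, and several reach their adult level only after birth.

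The members fell into one that differed by genotype and 9 that did not pass the test. *Slco1a4* was higher in *Ppara*-/- livers, and no member was lower. Genotypes were compared with limma, a linear model fitted to every probe set, here with genotype and sex as terms. A gene was called at an adjusted p (Benjamini-Hochberg over all probe sets) under 0.05. At that threshold 1.99% of all genes were higher and 1.12% lower in *Ppara*-/- livers, and a single gene does not set the 10 members apart from this background. The median log2 fold change (*Ppara*-/- minus *Ppara*+/+) was 0.04 over the members and -0.01 over all genes, and the median size of the change irrespective of sign was 0.07 over the members and 0.06 over all genes. For 2 members, *Slco1a4* and *Slc10a1*, every *Ppara*-/- liver exceeded every *Ppara*+/+ liver, a pattern found in 2.88% of all genes. The opposite separation was found for 0 members and 1.43% of all genes. An unadjusted p under 0.05 was reached by 3 members, *Slco1a4*, *Slc10a1* and *Abcc3*, and by 17.2% of all genes.

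The median log2 signal of an array lay between 7.157 and 7.199, and pairs of arrays correlated at 0.989 to 0.996. *Ppara* itself was lower in all 6 *Ppara*-/- livers (log2 fold change -0.89, adjusted p = 1.2e-06), and 11 of 13 measured genes from a list of established PPARα targets were lower. Of markers of hepatocytes, 1 of 8 measured was called, *Hpd*, which was higher. Their mean log2 signal was 12.92 to 13.11 in *Ppara*-/- arrays and 12.89 to 13.22 in *Ppara*+/+ arrays. Fetal hepatoblast markers were higher in *Ppara*-/- livers for 4 of 6 measured (*Dlk1*, *Gpc3*, *Peg3* and *Igf2bp3*), with list means of 12.31 to 12.38 in *Ppara*-/- arrays and 12.11 to 12.17 in *Ppara*+/+ arrays. Markers of Kupffer cells and macrophages had a median log2 fold change of 0.205 with 0 of 11 called, and liver endothelium markers one of 0.13 with 0 of 10 called. Stellate cell markers had a median of 0.09 (0 of 9 called) and cholangiocyte markers one of 0.06 (0 of 8 called). Erythroid markers were shifted downwards (median -0.155, 0 of 7 called), with list means of 11.675 to 11.97 in *Ppara*-/- arrays and 11.73 to 12.07 in *Ppara*+/+ arrays. The part of these shifts in the results on the transporters was not tested.

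**Figure D1:**
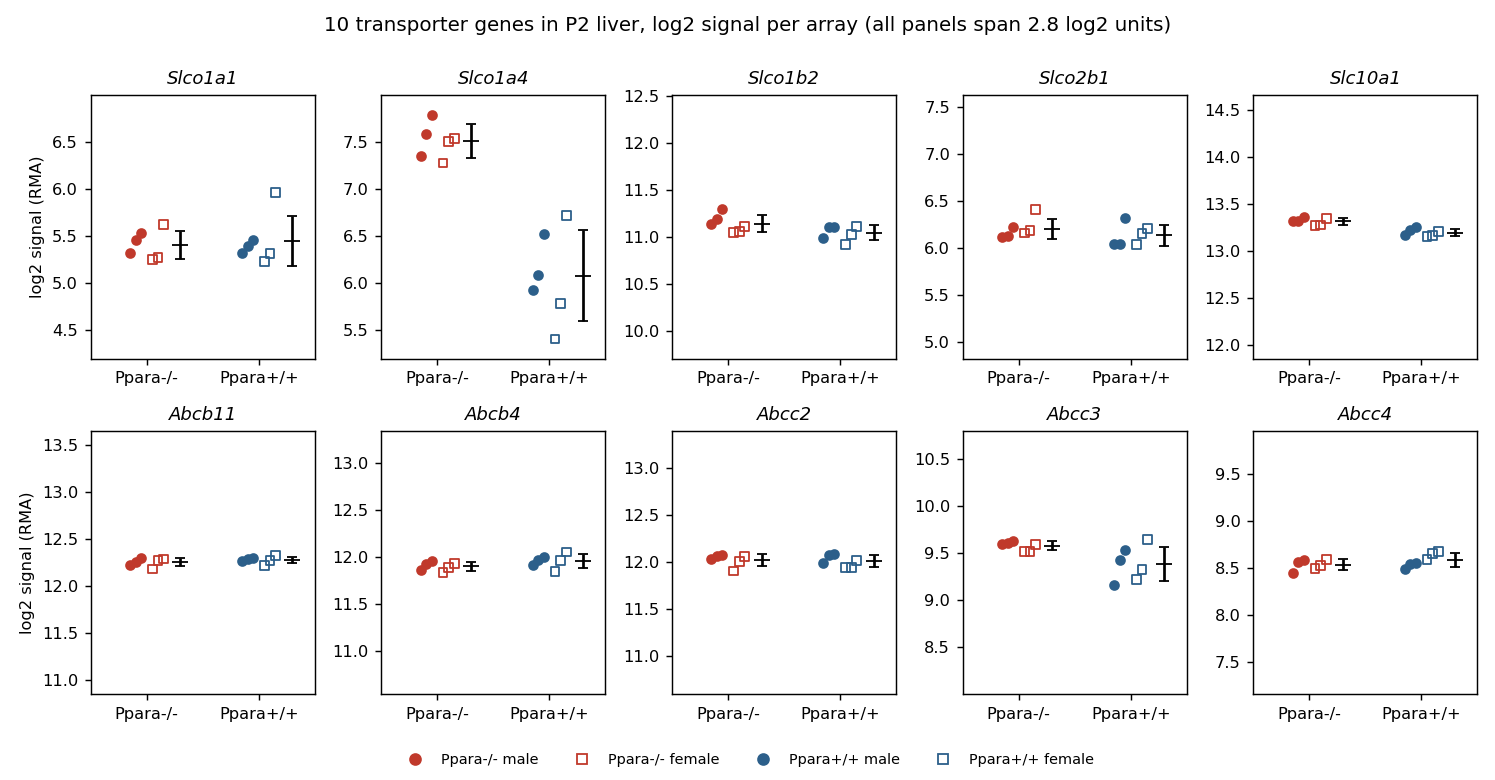
Log2 signal (vertical axis) of the 10 transporter genes in each array, with *Ppara*-/- livers on the left and *Ppara*+/+ livers on the right of each panel. Filled circles are males, open squares females, and bars give mean ± SD of 6 arrays. Every panel spans the same range, and only for *Slco1a4* does the distance between the genotype means, 1.43, fill a large part of it. Its values ran from 7.28 to 7.79 in *Ppara*-/- livers and from 5.40 to 6.72 in *Ppara*+/+ livers.

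*Slco1a4*, a sinusoidal carrier of bile acids, steroid conjugates and cardiac glycosides, had a log2 signal of 7.28 at the lowest, 7.52 at the median and 7.79 at the highest in *Ppara*-/- livers, against 5.40, 6.01 and 6.72 in *Ppara*+/+ livers. The lowest *Ppara*-/- liver thus lay above the highest *Ppara*+/+ liver, and the *Ppara*+/+ livers were spread more widely. The means were 7.51 ± 0.18 in *Ppara*-/- and 6.07 ± 0.48 in *Ppara*+/+ livers (SD, n = 6 each). The log2 fold change was 1.43 (SE 0.192, 95% interval 1.01 to 1.85, adjusted p = 0.00191 from limma), which is 2.70-fold. The *Ppara*+/+ mean lay below the array medians, so that the size of the difference is less certain than its direction. In whole-liver RNA a change in the number of expressing cells and a change in RNA per cell cannot be told apart.

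The difference was seen in both sexes. Male *Ppara*-/- livers averaged 7.57 and male *Ppara*+/+ livers 6.18, while female *Ppara*-/- livers averaged 7.44 and female *Ppara*+/+ livers 5.97. The log2 fold change of *Slco1a4* was 1.395 in males (adjusted p = 0.0695) and 1.47 in females (adjusted p = 0.0595), with 3 pups a group, and neither passed alone. The interaction of genotype and sex was -0.075 (SE 0.401, adjusted p = 1). Its standard error is too large to tell whether the sexes respond alike.

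Among *Ppara*+/+ livers the highest *Slco1a4* value, 6.72, came from replicate 7, a female, and the lowest, 5.40, from replicate 8, also a female. The list mean of Kupffer cell and macrophage markers was 10.30 to 10.45 in the *Ppara*-/- arrays, 10.43 in *Ppara*+/+ replicate 7 and 10.03 to 10.23 in the other *Ppara*+/+ arrays. Replicate 7 also lay outside the other *Ppara*+/+ arrays for hepatocyte markers (13.22, against 12.89 to 13.09) and erythroid markers (11.73, against 11.96 to 12.07). It lay slightly above them for endothelium markers (10.17, against at most 10.12) and stellate markers (9.55, against at most 9.53). For fetal hepatoblast markers (12.16, against 12.11 to 12.17) and cholangiocyte markers (7.55, against 7.36 to 7.68) it lay within their range. Without replicate 7 the log2 fold change of *Slco1a4* was 1.595 (adjusted p = 1.7e-04). The part of these cell types in the *Slco1a4* signal was not tested.

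Once the genotype means were removed, the pup-to-pup deviations of *Slco1a4* over the 12 arrays were most like those of *Adap2*, an Arf GTPase-activating protein (Pearson r = 0.95), *Fyb*, an adapter protein of T cells and myeloid cells (0.93), and *Coq8b*, a protein of coenzyme Q synthesis (0.93). These were the nearest of 9969 genes above the median signal, and the arrays share litter and array quality, so the values are a description. None of them was called between genotypes, with adjusted p of 0.339 for *Adap2*, 0.404 for *Fyb* and 0.779 for *Coq8b*.

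*Slco1a4* lies on mouse chromosome 6 in a row of related Slco1 genes that arose by duplication. Because the stretch before its start can be compared with those of its neighbours, the windows of *Slco1a4*, *Slco1a1* and the inner start of *Slco1a5* are shown, from RefSeq on GRCm38.p6, minus strand, 5′ to 3′ and ending next to the start or, for *Slco1a4*, at the edge of the annotated gene. Their positions are chr6:141856285-141856470 for *Slco1a4*, chr6:142278875-142279124 for *Slco1a5* and chr6:141946963-141947212 for *Slco1a1*. Capitals mark the CCAAT box, the half-site AGGTCA, and the TATA box TATAAA, on either strand.
Slco1a4: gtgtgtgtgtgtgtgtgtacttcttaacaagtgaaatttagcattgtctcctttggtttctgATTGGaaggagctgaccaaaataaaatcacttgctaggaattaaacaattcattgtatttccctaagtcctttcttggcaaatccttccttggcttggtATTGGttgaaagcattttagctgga
Slco1a5: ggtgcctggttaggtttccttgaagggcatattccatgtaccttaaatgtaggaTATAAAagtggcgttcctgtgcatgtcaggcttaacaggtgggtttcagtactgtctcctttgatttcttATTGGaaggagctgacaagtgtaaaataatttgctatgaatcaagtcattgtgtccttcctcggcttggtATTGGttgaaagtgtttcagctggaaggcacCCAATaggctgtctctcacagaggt
Slco1a1: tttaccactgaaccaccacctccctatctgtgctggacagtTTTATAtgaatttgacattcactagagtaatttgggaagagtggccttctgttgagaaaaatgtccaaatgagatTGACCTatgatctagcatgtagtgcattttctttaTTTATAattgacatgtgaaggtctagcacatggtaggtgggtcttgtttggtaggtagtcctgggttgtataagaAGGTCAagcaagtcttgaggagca
The window of *Slco1a4* and that of the inner *Slco1a5* start could be aligned over 164 columns with 69.5% identity. The 2 CCAAT boxes marked for *Slco1a4* were identical in that alignment. The *Slco1a1* window could be aligned with that of *Slco1a4* over only 21 columns. For the windows, not shown, of the outer *Slco1a5* start, *Slco1a6* and *Slco1b2* it was 15, 19 and 12 columns.

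Windows of 250 bases before each annotated start were searched on both strands. The motifs were the nuclear receptor half-site AGGTCA and the direct repeat of this half-site with 1 base between, to which PPARα binds with RXR. Also searched were the antioxidant response element core TGACNNNGC, the TATA box TATAAA and the CCAAT box. Windows of *Abcc4*, and some of *Slco2b1* and *Slc10a1*, lie inside the annotated gene. Those of *Slco1a4*, *Slco1b2* and *Abcb4* reach into it, so a match need not lie upstream of the gene. The repeat contains the half-site, and the element core can overlap a half-site on the other strand. Such windows were at hand for 9 of the 10 members, all but *Abcc3*. A gene can have several windows, with 3 for *Slco2b1* and 2 each for *Slc10a1* and *Abcc4*. Members are listed below if any of their windows held a match, whereas the shares are per window, so the 2 are not like measures. The *Slco1a4* window held CCAAT at 2 places and none of the other motifs. CCAAT was also present in windows of *Slco2b1*, *Abcb4* and *Abcc2*, and in 33.8% of all 32851 windows. The half-site was present in windows of *Slco1a1*, *Slco1b2*, *Slc10a1*, *Abcb11* and *Abcc2*, against 14% of all windows. TGACNNNGC was present in windows of *Abcc2* and *Abcc4*, against 10.2% of all windows. TATAAA was found for *Slco1a1*, *Slco1b2* and *Slc10a1*, against 12.4% of all windows. The strict direct repeat was in no member's window and in 0.0335% of all windows. A match is a matter of letters only, and a window without one says nothing about more distant or degenerate sites.

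Among the 7 measured genes of the Slco1 row, *Slco1a4* was the only one called. The neighbours outside the member list were named for their position, after their values were seen. *Slco1c1*, which carries thyroxine in brain capillaries, averaged 5.115 ± 0.105 in *Ppara*-/- and 5.20 ± 0.10 in *Ppara*+/+ livers (log2 fold change -0.09, adjusted p = 0.532). *Slco1a6* averaged 4.43 ± 0.06 in *Ppara*-/- and 4.54 ± 0.06 in *Ppara*+/+ livers (-0.12, adjusted p = 0.196). *Slco1a5* averaged 4.76 ± 0.17 in *Ppara*-/- and 4.67 ± 0.12 in *Ppara*+/+ livers (0.09, adjusted p = 0.568), and *Gm6614* averaged 3.70 ± 0.14 in *Ppara*-/- and 3.77 ± 0.205 in *Ppara*+/+ livers (-0.07, adjusted p = 0.804). These 4 signals lay under the array medians, and a change may not be detectable at such signals. The genes are similar in sequence, and how far their probes separate them is unknown from the sources at hand.

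**Figure D2:**
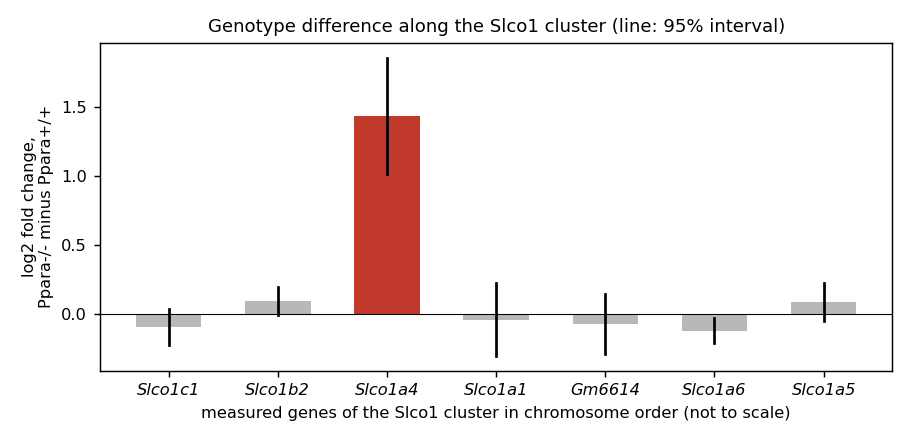
Log2 fold change (*Ppara*-/- minus *Ppara*+/+, vertical axis) of the 7 measured Slco1 genes in their order along the chromosome, with spacing not to scale. Bars are limma estimates, lines 95% intervals, and the coloured bar is *Slco1a4* at 1.43, the only gene of the row past the test.

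*Slco1a1*, a carrier of the same subfamily that in adult mice is more abundant in males, had log2 signals of 5.26, 5.39 and 5.62 (lowest, median, highest) in *Ppara*-/- livers and 5.23, 5.36 and 5.97 in *Ppara*+/+ livers. The genotypes overlapped throughout, and the highest value was again that of *Ppara*+/+ replicate 7. *Slco1a1* had a log2 fold change of -0.04 (SE 0.119, 95% interval -0.30 to 0.22, adjusted p = 0.925), which turned to 0.075 without that array (adjusted p = 0.607). Its signal was below the 40th percentile of all probe sets, 6.53, in the mean over arrays, so that little can be read at this level.

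*Slco1b2*, the mouse counterpart of the human OATP1B carriers and the main uptake route of conjugated bilirubin, had log2 signals of 11.05, 11.13 and 11.29 in *Ppara*-/- livers and 10.92, 11.07 and 11.115 in *Ppara*+/+ livers. Values of the genotypes overlapped, although both extremes were higher in *Ppara*-/- livers. Its log2 fold change of 0.10 (SE 0.0464, 95% interval -0.005 to 0.20) did not pass (adjusted p = 0.360).

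*Slco2b1*, a carrier of sulfated steroids, had log2 signals of 6.12, 6.17 and 6.41 in *Ppara*-/- livers and 6.04, 6.10 and 6.32 in *Ppara*+/+ livers. The ranges overlapped, with both extremes higher in *Ppara*-/- livers. The difference, a log2 fold change of 0.07 (SE 0.0646, 95% interval -0.07 to 0.21, adjusted p = 0.669), did not pass, and this probe set also lay under the 40th percentile of signal.

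*Slc10a1*, encoding NTCP, the sodium-dependent carrier of conjugated bile acids, had log2 signals of 13.27, 13.32 and 13.36 in *Ppara*-/- livers and 13.15, 13.19 and 13.26 in *Ppara*+/+ livers. The genotypes did not overlap, but the gap between them was narrow. Means were 13.32 ± 0.04 in *Ppara*-/- and 13.20 ± 0.04 in *Ppara*+/+ livers (SD, n = 6 each). This log2 fold change of 0.12 (SE 0.0322, 95% interval 0.05 to 0.19), or 1.09-fold, missed the threshold (adjusted p = 0.0840). The exact permutation test over all 924 divisions of the arrays gave p = 0.00216, the smallest it can give, without adjustment. With dim probe sets left out the adjusted p was 0.0316, with a robust variance trend 0.00542 and with array weights 0.0495, while over all 23 adjusted alternatives it ran from 0.00542 to 0.506. The estimates in the sexes were close, 0.12 in males and 0.12 in females.

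**Figure D3:**
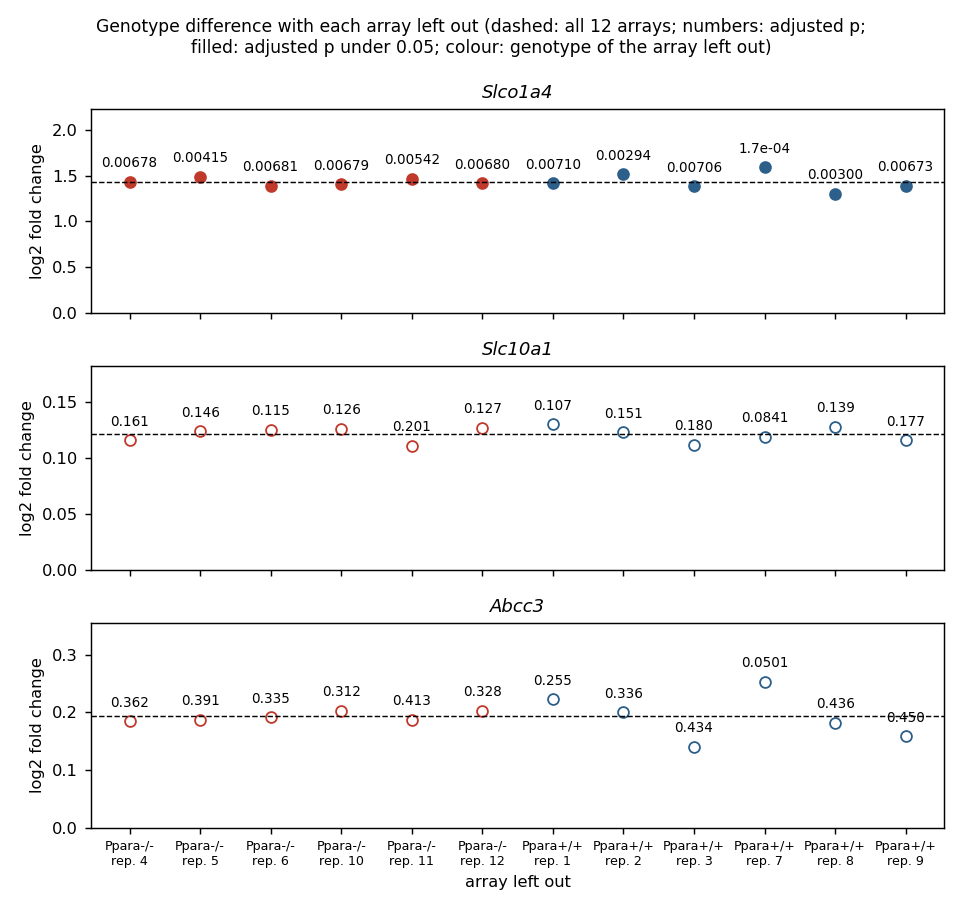
Log2 fold change (*Ppara*-/- minus *Ppara*+/+, vertical axes) of *Slco1a4*, *Slc10a1* and *Abcc3* with each of the 12 arrays left out in turn, the adjusted p printed above each point and filled points passing. *Slco1a4* passed in all 12 cases (1.303 to 1.595), whereas *Slc10a1* (0.11 to 0.13) and *Abcc3* (0.14 to 0.25) passed in none.

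None of the 3 canalicular exporters among the members passed the test. *Abcb11*, the bile salt export pump, had log2 signals of 12.18, 12.265 and 12.30 in *Ppara*-/- livers and 12.22, 12.28 and 12.32 in *Ppara*+/+ livers. These ranges nearly coincided. The log2 fold change was -0.02 (SE 0.0346, adjusted p = 0.816), with a 95% interval of -0.10 to 0.05.

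*Abcb4*, the flippase that supplies phosphatidylcholine to bile, had log2 signals of 11.84, 11.91 and 11.96 in *Ppara*-/- livers and 11.85, 11.97 and 12.06 in *Ppara*+/+ livers. The ranges overlapped, with the *Ppara*-/- livers slightly to the low side. Its log2 fold change was -0.06 (SE 0.0420, 95% interval -0.15 to 0.03, adjusted p = 0.578). *Abcc2*, the canalicular pump of bilirubin glucuronides and glutathione conjugates, had log2 signals of 11.91, 12.05 and 12.08 in *Ppara*-/- livers and 11.94, 12.005 and 12.09 in *Ppara*+/+ livers. The genotypes overlapped completely. *Abcc2* had a log2 fold change of 0.015 (SE 0.0378, 95% interval -0.07 to 0.10, adjusted p = 0.898). For these 3 exporters the intervals together ran from -0.15 to 0.10 on the log2 scale.

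The basolateral efflux pumps did not pass either. *Abcc3*, which returns glucuronides and bile acids to blood, had log2 signals of 9.515, 9.59 and 9.63 in *Ppara*-/- livers and 9.16, 9.375 and 9.64 in *Ppara*+/+ livers. The *Ppara*-/- livers were tightly grouped near the upper end of the wider *Ppara*+/+ range, and *Ppara*+/+ replicate 7 lay above all of them. The means were 9.58 ± 0.05 in *Ppara*-/- and 9.38 ± 0.19 in *Ppara*+/+ livers, a log2 fold change of 0.19 (SE 0.0781, 95% interval 0.02 to 0.36, adjusted p = 0.275). Without replicate 7 the fold change was 0.25 and the adjusted p 0.0501, just outside the threshold. The exact permutation test, unadjusted, gave p = 0.0411.

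*Abcc4*, an efflux pump of bile acids and cyclic nucleotides that is induced in cholestasis, had log2 signals of 8.445, 8.55 and 8.59 in *Ppara*-/- livers and 8.49, 8.575 and 8.68 in *Ppara*+/+ livers. The ranges overlapped widely. The log2 fold change was -0.05 (SE 0.0408, 95% interval -0.14 to 0.04, adjusted p = 0.621).

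Sex was tested in the same fit. No member differed between males and females in limma (adjusted p = 1 for all 10), and 0 had an unadjusted p under 0.05. Over all genes 0.0401% were called for sex, and 2.78% had an unadjusted p under 0.05. The lowest unadjusted p of a member was that of *Abcc2*, 0.0688, with a log2 difference (male minus female) of 0.08, followed by *Slco1b2*, 0.0742, with one of 0.09. For the interaction of genotype and sex, 0 members were called and 0 had an unadjusted p under 0.05 in limma, against 0% and 1.79% of all genes.

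**Figure D4:**
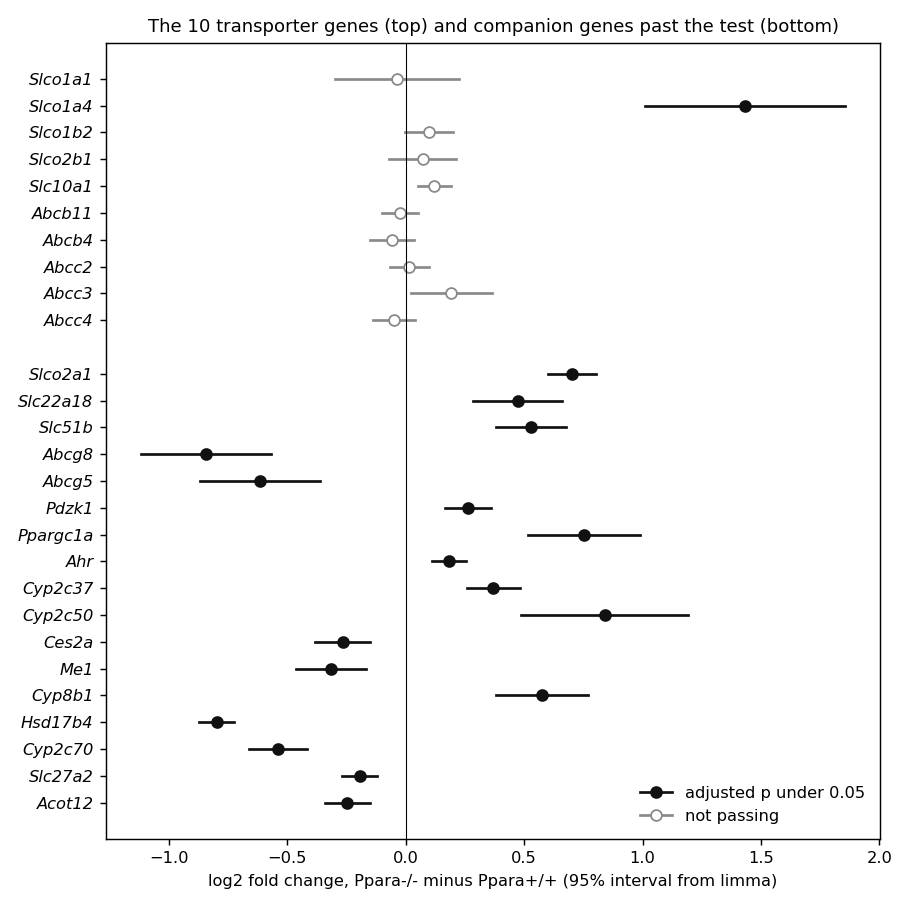
Log2 fold change (*Ppara*-/- minus *Ppara*+/+, horizontal axis) with its 95% interval from limma for the 10 transporter genes in the upper block and for the 17 other genes of the transporter, regulator and bile acid lists past the test in the lower block. Filled points passed at an adjusted p under 0.05; *Slco1a4* at 1.43 is the only filled point of the upper block.

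Other genes of transport and bile acid handling were read from lists of 121 measured genes outside the members and the PPARα target list, of which 9 were higher and 8 lower in *Ppara*-/- livers. Beside this and the list counts below stand 1.99% of all genes called higher and 1.12% called lower. The lists were written with earlier results of these data known, so the counts are a description. Of 16 further carriers of the SLC and SLCO families 2 were higher and 0 lower (median log2 fold change 0.01). *Slco2a1*, the prostaglandin transporter, had log2 signals of 11.11, 11.21 and 11.32 in *Ppara*-/- livers and 10.44, 10.48 and 10.61 in *Ppara*+/+ livers. Its genotypes were far apart relative to their spread, with a log2 fold change of 0.70 (SE 0.0470, adjusted p = 7.8e-06). Within the sexes most of the 17 calls over all lists were lost, with 3 pups a group: 2 higher and 2 lower genes passed in males, and 3 higher and 3 lower in females. *Slco2a1* passed in both, with a log2 fold change of 0.64 in males (adjusted p = 0.00109) and 0.76 in females (adjusted p = 3.1e-04), whereas *Slc22a18* (0.227 and 0.178), *Abcg8* (0.0700 and 0.124) and *Abcg5* (0.191 and 0.267) had adjusted p above the threshold in males and females. *Slc22a18*, an organic cation transporter-like protein, averaged 10.53 ± 0.05 in *Ppara*-/- and 10.06 ± 0.21 in *Ppara*+/+ livers (log2 fold change 0.47, adjusted p = 0.0124). *Slco2a1* is known from vascular endothelium among other cells, and the list mean of endothelium markers was 10.14 to 10.25 in *Ppara*-/- arrays and 9.995 to 10.17 in *Ppara*+/+ arrays; their part in its difference was not tested.

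Of 16 further efflux pumps and flippases 1 was higher and 2 were lower (median log2 fold change 0.05). *Slc51b*, the β subunit of the basolateral bile acid exporter OSTα-OSTβ, had log2 signals of 8.72, 8.91 and 9.08 in *Ppara*-/- livers and 8.195, 8.38 and 8.52 in *Ppara*+/+ livers. The genotypes did not overlap, and the log2 fold change was 0.53 (SE 0.0674, adjusted p = 0.00126). Its partner *Slc51a*, named after its value was seen, averaged 5.93 ± 0.33 in *Ppara*-/- and 5.78 ± 0.185 in *Ppara*+/+ livers and did not pass (0.15, adjusted p = 0.660). *Abcg8* and *Abcg5*, the paired subunits of the canalicular sterol exporter, were both lower. *Abcg8* averaged 9.11 ± 0.06 in *Ppara*-/- and 9.95 ± 0.32 in *Ppara*+/+ livers (log2 fold change -0.84, adjusted p = 0.00372), and *Abcg5* averaged 10.27 ± 0.08 in *Ppara*-/- and 10.89 ± 0.29 in *Ppara*+/+ livers (-0.62, adjusted p = 0.0156). Both genes were separated between genotypes, with the wider spread among *Ppara*+/+ livers.

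**Figure D5:**
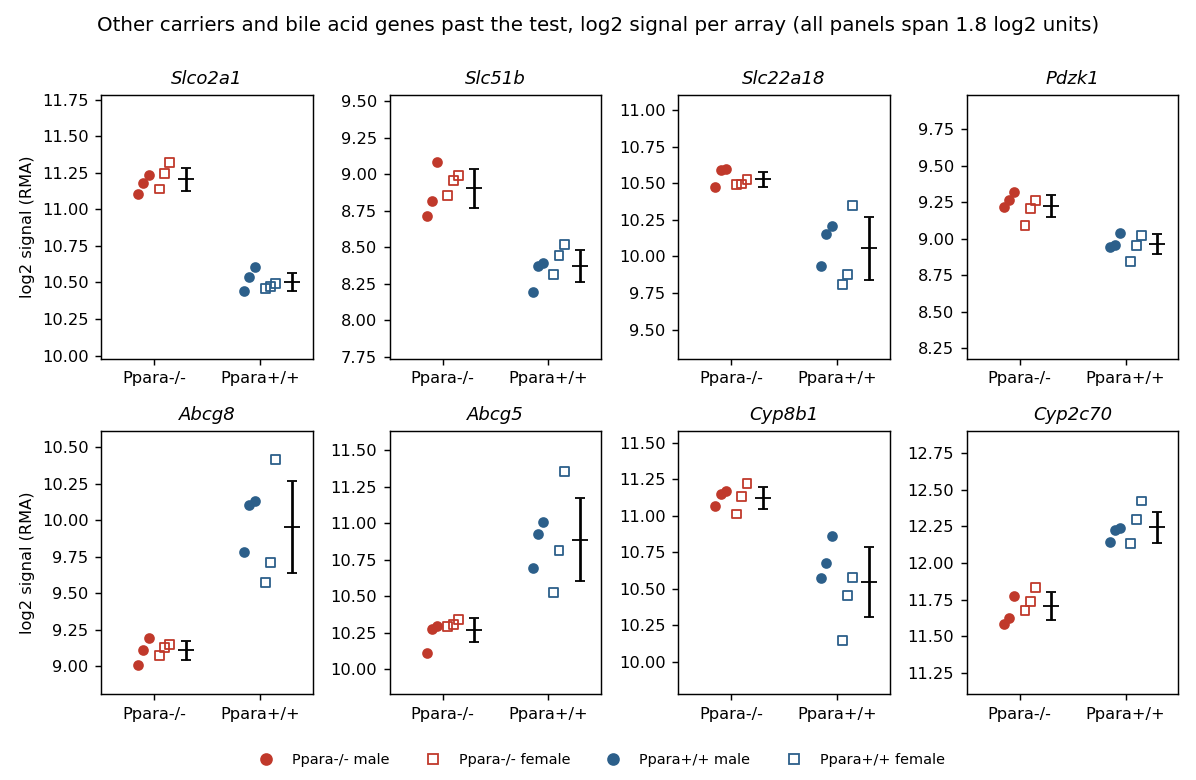
Log2 signal (vertical axis) of 8 carriers, scaffold and bile acid genes outside the member list in each array, *Ppara*-/- on the left and *Ppara*+/+ on the right; filled circles are males, open squares females, bars mean ± SD of 6 arrays, and every panel spans the same range. In all 8 panels the genotypes are fully separated, with *Slco2a1*, *Slc51b*, *Slc22a18*, *Pdzk1* and *Cyp8b1* higher and *Abcg8*, *Abcg5* and *Cyp2c70* lower in *Ppara*-/- livers. The 8 genes were picked from those past the test, so their separation largely follows from that choice. Over all genes 2.88% were separated with *Ppara*-/- livers above and 1.43% with them below.

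Of 13 scaffold and trafficking proteins only *Pdzk1* was called. This PDZ protein, which binds SLCO carriers at the membrane of mouse hepatocytes, averaged 9.23 ± 0.08 in *Ppara*-/- and 8.96 ± 0.07 in *Ppara*+/+ livers (log2 fold change 0.265, adjusted p = 0.00790). Of 24 receptors and factors that regulate the transporters 2 were higher and 0 lower. For the coactivator *Ppargc1a* the log2 fold change was 0.75 (adjusted p = 0.00299), and for *Ahr*, which binds dioxins and other aromatic ligands, it was 0.18 (adjusted p = 0.0108). Of the same list, *Nr1i2*, *Nr1i3*, *Nr1h4*, *Nr0b2* and *Nfe2l2* are named for their known action on the members, after their values were seen, and none of these 5 was called. *Nr1i2* (PXR) had a log2 fold change of -0.08 (adjusted p = 0.382), *Nr1i3* (CAR) one of 0.10 (adjusted p = 0.274), *Nr1h4* (FXR) one of -0.14 (adjusted p = 0.319) and *Nr0b2* (SHP) one of 0.00 (adjusted p = 0.990). For *Nfe2l2*, which encodes NRF2, it was 0.09 (adjusted p = 0.272).

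Enzymes induced by the same receptors were called in both directions. Of 15 measured PXR and CAR induced enzymes 2 were higher, *Cyp2c37* (log2 fold change 0.37, adjusted p = 0.00237) and *Cyp2c50* (0.84, adjusted p = 0.0180), and 1 was lower, the carboxylesterase *Ces2a* (-0.27, adjusted p = 0.0212). *Ces2a* no longer passed without *Ppara*-/- replicate 4, 10 or 12 (adjusted p of 0.0529, 0.0549 and 0.0587), nor *Cyp2c50* without *Ppara*+/+ replicate 1 (0.0506). *Cyp3a11*, a usual marker of PXR activity named after its value was seen, averaged 12.55 ± 0.07 in *Ppara*-/- and 12.41 ± 0.095 in *Ppara*+/+ livers (0.15, adjusted p = 0.177). Of 15 measured NRF2 induced enzymes 0 were higher and 1 was lower, malic enzyme *Me1* (-0.32, adjusted p = 0.0356). This call was fragile. *Me1* had an adjusted p under 0.05 in 11 of 23 adjusted alternatives, not with 4 groups (adjusted p = 0.0517). Counted there is the alternative with a 1.3-fold minimum, which the 1.245-fold change of *Me1* did not reach. In 3 of 12 fits with an array left out *Me1* passed, those without *Ppara*-/- replicate 12 and *Ppara*+/+ replicates 2 and 7 (adjusted p up to 0.0902 over the 12). Without *Ppara*+/+ replicate 7, the count of higher genes over all lists was 15 instead of 9, and *Slc22a7*, *Atp7b*, *Cyp3a11*, *Gstm1*, *Gsta4* and *Gstm3*, named after their values were seen, were the added ones.

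Of 20 genes of bile acid synthesis and conjugation 1 was higher and 4 were lower. *Cyp8b1*, the sterol hydroxylase that directs synthesis towards cholic acid, averaged 11.12 ± 0.07 in *Ppara*-/- and 10.55 ± 0.24 in *Ppara*+/+ livers (log2 fold change 0.58, adjusted p = 0.00434). *Cyp2c70*, which makes muricholic acids in mice, averaged 11.705 ± 0.095 in *Ppara*-/- and 12.24 ± 0.11 in *Ppara*+/+ livers (-0.54, adjusted p = 3.1e-04). The other lower genes were *Hsd17b4* (-0.80), a peroxisomal enzyme of side-chain shortening that also serves fatty acid oxidation, *Slc27a2* (-0.19), an acyl-CoA synthetase, and *Acot12* (-0.25), a thioesterase. In the list of bilirubin and heme disposal, which shares *Abcc2* and *Slco1b2* with the members, 0 of 6 measured genes were called, with a median log2 fold change of 0.05.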

How the data were processed

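The authors computed RMA values (version unstated in the sources used here) and deposited them as log2 signals. These were used without further normalization. Of 35556 probe sets, 21789 name 1 gene, 1621 several and 12146 none; where several named a gene alone, the one with the highest mean was kept. Per the labels, RNA had an integrity number above 8. All 12 arrays fit their sex label. Fetal arrays were not analysed here.

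Fits used limma 3.58.1 in R 4.3.3 (lmFit and eBayes, genotype and sex as terms, 9 residual and 2.49 prior degrees of freedom, two-sided, Benjamini-Hochberg over all probe sets). The interaction and within-sex contrasts came from a fit of 4 groups. Precision is limited by the number of arrays. The calculation was checked on simulated data. Genes named were the members, *Ppara*, up to 4 called genes per list and direction, and the 3 genes most like a called member; others are said to be named after their values were seen. The members, lists and alternatives were chosen with earlier results of these data known. Alternatives were genotype alone; 4 groups; each sex; quantile normalization; centring on array medians; omission of probe sets under the 40th percentile of signal; restriction to probe sets of 1 gene; a robust trended variance; array weights; a 1.3-fold minimum; an unadjusted exact permutation test; and omission of each array in turn. Windows were aligned locally with Biopython 1.88.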

Additional observations from a re-analysis of the deposited data

Results flagged for a closer look

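Of 64 groups of 6 arrays tested for a single distant value, 4 had one, while chance alone marks about 1 group in 20. *Slco1a1* in *Ppara*+/+ replicate 7 had a log2 signal of 5.97, above 5.23 to 5.46 in the other *Ppara*+/+ livers. *Slco2b1* in *Ppara*-/- replicate 11 had 6.41, above 6.12 to 6.22 in the other *Ppara*-/- livers. *Abcg5* in *Ppara*-/- replicate 6 had 10.11, below 10.27 to 10.34 in the others. *Cyp2c37* in *Ppara*-/- replicate 10 had 12.28, above 12.015 to 12.11 in the others.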

How the results depend on the processing

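*Slco1a4* was called in 21 of 23 adjusted alternatives, all but the contrasts within males and within females, with a log2 fold change of 1.303 to 1.595. The count of members higher in *Ppara*-/- livers was 2 with probe sets below the 40th percentile left out, with a robust variance trend and with array weights, the added gene being *Slc10a1*. It was 0 within males, 0 within females, 3 by the unadjusted exact permutation test (*Slco1a4*, *Slc10a1* and *Abcc3*) and 1 with any array left out. Direction changed for members near zero. *Abcc2* stood at -0.004 with quantile normalization and at -0.001 to 0.033 with arrays left out. *Slco1a1* stood at 0.019 with array weights, 0.047 within males and -0.089 to 0.075 with arrays left out (0.000 without *Ppara*-/- replicate 10). Among the list genes, 4 instead of 8 were lower with a change above 1.3-fold. Of the higher ones, *Pdzk1* (1.201-fold), *Ahr* (1.136-fold) and *Cyp2c37* (1.293-fold) also lay under that minimum. With arrays left out 6 to 8 list genes were lower (*Me1* and *Ces2a* being the genes lost) and 8 to 15 higher, the 15 without *Ppara*+/+ replicate 7. In contrasts added after seeing the data, 2 were higher and 2 lower within males, and 3 higher and 3 lower within females. The causes were not tested. Each member has 1 probe set, so that averaging probe sets gives no other value. No paired analysis was possible because the labels do not assign pups to litters and the genotypes share no replicate numbers. Signals of *Slco1a1*, *Slco2b1* and, in *Ppara*+/+ livers, *Slco1a4* are dim, which limits their folds.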
